A study of Mus musculus with 12 samples.

Results

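The genes described here are 37 genes of G2 and mitosis, the cyclins, kinases, spindle, kinetochore, condensin and cytokinesis genes that a cell switches on to divide. They were chosen by name from the gene count table, which holds 39331 gene entries, and all 37 were found there once. They were measured by RNA sequencing in hearts of untreated C57BL/6N mice aged 9 months, in 6 libraries from carriers of the Lemd2 p.L13R knock-in (KI) and 6 from wild type (WT). The knock-in puts arginine in place of leucine in LEMD2, a LEM-domain protein of the inner nuclear membrane, and the comparison asks how heart gene expression differs at this age. The labels give neither zygosity nor sex, and the titles of KI 1 and KI 2 join a pair of numbers with a plus sign that is not explained there. Heart tissue mixes muscle, vessel, stromal and blood cells.

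Mitotic genes are transcribed in a wave late in the cell cycle, mainly through FOXM1, B-MYB and the MuvB complex at a promoter element called the CHR (cell cycle genes homology region), with NF-Y at CCAAT boxes close by. In resting cells the DREAM complex, which also holds MuvB, sits at the same elements and keeps these genes low. Most heart muscle cells leave the cell cycle soon after birth, so in an adult heart such transcripts are scarce. In a bulk sample, more cells in division and more RNA per dividing cell cannot be told apart.

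The promoters of these genes are shown first because they are a shared feature that the choice by name did not use. RefSeq promoter windows on build GRCm38.p6, running from 250 bases before to 50 bases from a gene start, were at hand for 30 of the 37 genes, in 32 windows. The CHR was searched as TTTGAA or TTCGAA and the CCAAT box as CCAAT, each on both strands, and in the 32 windows the 2 motifs overlapped only in that of Cdca8, by 1 match. A CHR stood in 81.2% of the windows of these genes, against 19.2% of all 32851 windows in the table. A CCAAT box stood in 81.2%, against 37.4% of all windows, and 2 or more of them in 16 of the 32, against 11.7% of all windows. Both motifs stood in 75.0%, against 7.52% of all windows. A match is a string of letters and shows no binding. The stretches below run from 200 bases before the start to the first 30 bases from it, 5′ to 3′ on the gene's strand, with both motifs in capitals. They belong to 4 genes of 3 roles that were called higher in KI hearts (Ccnb2, Cdk1, Top2a and Racgap1), to Bub1, which just missed the threshold, and to Cenpf, the gene whose fold change pointed the other way.
Ccnb2 (chr9:70421525-70421754, minus strand): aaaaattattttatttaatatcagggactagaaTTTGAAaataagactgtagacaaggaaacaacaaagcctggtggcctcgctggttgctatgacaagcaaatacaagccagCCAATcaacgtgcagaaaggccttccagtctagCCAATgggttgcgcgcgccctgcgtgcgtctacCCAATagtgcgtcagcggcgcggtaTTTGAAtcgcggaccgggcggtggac
Cdk1 (chr10:69352883-69353112, minus strand): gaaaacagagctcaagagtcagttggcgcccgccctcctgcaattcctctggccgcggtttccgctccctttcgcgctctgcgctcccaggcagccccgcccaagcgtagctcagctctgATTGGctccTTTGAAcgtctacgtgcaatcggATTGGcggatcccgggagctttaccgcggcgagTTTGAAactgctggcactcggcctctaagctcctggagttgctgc
Top2a (chr11:99024160-99024389, minus strand): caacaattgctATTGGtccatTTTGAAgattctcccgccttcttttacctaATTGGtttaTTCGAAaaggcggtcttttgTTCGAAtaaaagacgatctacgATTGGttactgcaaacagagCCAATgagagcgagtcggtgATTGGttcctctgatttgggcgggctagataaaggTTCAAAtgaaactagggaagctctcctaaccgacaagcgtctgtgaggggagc
Bub1 (chr2:127831830-127832059, minus strand): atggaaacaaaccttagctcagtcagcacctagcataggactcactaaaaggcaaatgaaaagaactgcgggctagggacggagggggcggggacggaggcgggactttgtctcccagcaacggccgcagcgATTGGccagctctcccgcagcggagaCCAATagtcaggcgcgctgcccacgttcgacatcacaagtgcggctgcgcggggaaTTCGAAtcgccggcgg
Racgap1 (chr15:99651627-99651856, minus strand): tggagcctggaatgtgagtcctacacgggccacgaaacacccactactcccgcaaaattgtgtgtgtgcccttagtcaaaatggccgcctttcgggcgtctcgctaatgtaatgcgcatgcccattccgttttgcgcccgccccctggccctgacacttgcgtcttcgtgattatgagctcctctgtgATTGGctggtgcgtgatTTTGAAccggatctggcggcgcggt
Cenpf (chr1:189688057-189688286, minus strand): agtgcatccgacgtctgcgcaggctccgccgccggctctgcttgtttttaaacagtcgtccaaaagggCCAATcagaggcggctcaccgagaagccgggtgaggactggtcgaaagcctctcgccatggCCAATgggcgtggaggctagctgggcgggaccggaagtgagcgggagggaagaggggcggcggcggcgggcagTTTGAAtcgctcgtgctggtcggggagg
Besides a CHR far upstream, Ccnb2 holds 3 CCAAT boxes, each 33 bases from the next, ahead of a CHR that begins 4 bases after the start. Cenpf has the same pair of motifs, a CHR that begins 2 bases after the start and 2 CCAAT boxes ahead of it.

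Abundance is given as counts per 1000000 counts (CPM), scaled by the TMM factors, and compared only within a gene, since the counts are not corrected for length. The 37 genes were at low levels, with 5.17 to 2302 counts per gene and library and means from 0.626 to 20.5 CPM, and all 37 passed the filter on low counts. Total counts ran from 27.9 to 42.9 M (units of 1000000) in KI and from 38.3 to 44.6 M in WT. Genes of the mitochondrial chromosome took 30.9% to 33.9% of the counts in KI libraries and 34.0% to 40.4% in WT libraries. With these mitochondrial genes left out of the edgeR fit, 20 of the 37 genes were higher in KI at an adjusted p under 0.05. With them kept, 21 were, and the median log2 fold change of the 37 was 1.07 either way. Over all genes tested, 4.3% were higher without them and 4.46% with them. Any further part of that difference in the results was not tested. Lemd2 itself was at 21.3 ± 2.88 CPM in KI and 27.4 ± 1.97 CPM in WT (SD, n = 6 each, edgeR adjusted p = 0.0215). A count does not show the substitution.

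As a group the 37 genes were higher in KI hearts. The edgeR test called 21 of them higher (56.8%), against 4.46% of the 15606 genes tested, and 0 lower, against 4.34%. Of the 37, 36 had a log2 fold change above 0, against 52.8% of all genes tested, and 36 passed an unadjusted p of 0.05 in that direction, against 12.8%. The remaining gene, Cenpf, also had an unadjusted p under 0.05, in the other direction (0.00998). In size, 24 genes had a log2 fold change of 1 or more, against 1.65% of all genes, and the median over the 37 was 1.07, against 0.01 over all genes tested. In 4 genes, Foxm1, Tpx2, Cenpe and Incenp, every KI library lay above every WT library, which held for 2.14% of all genes. DESeq2 called 33 of the 37 higher, against 6.28% of all genes, and voom 22, against 6.5%, and neither called any lower.

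**Figure D1:**
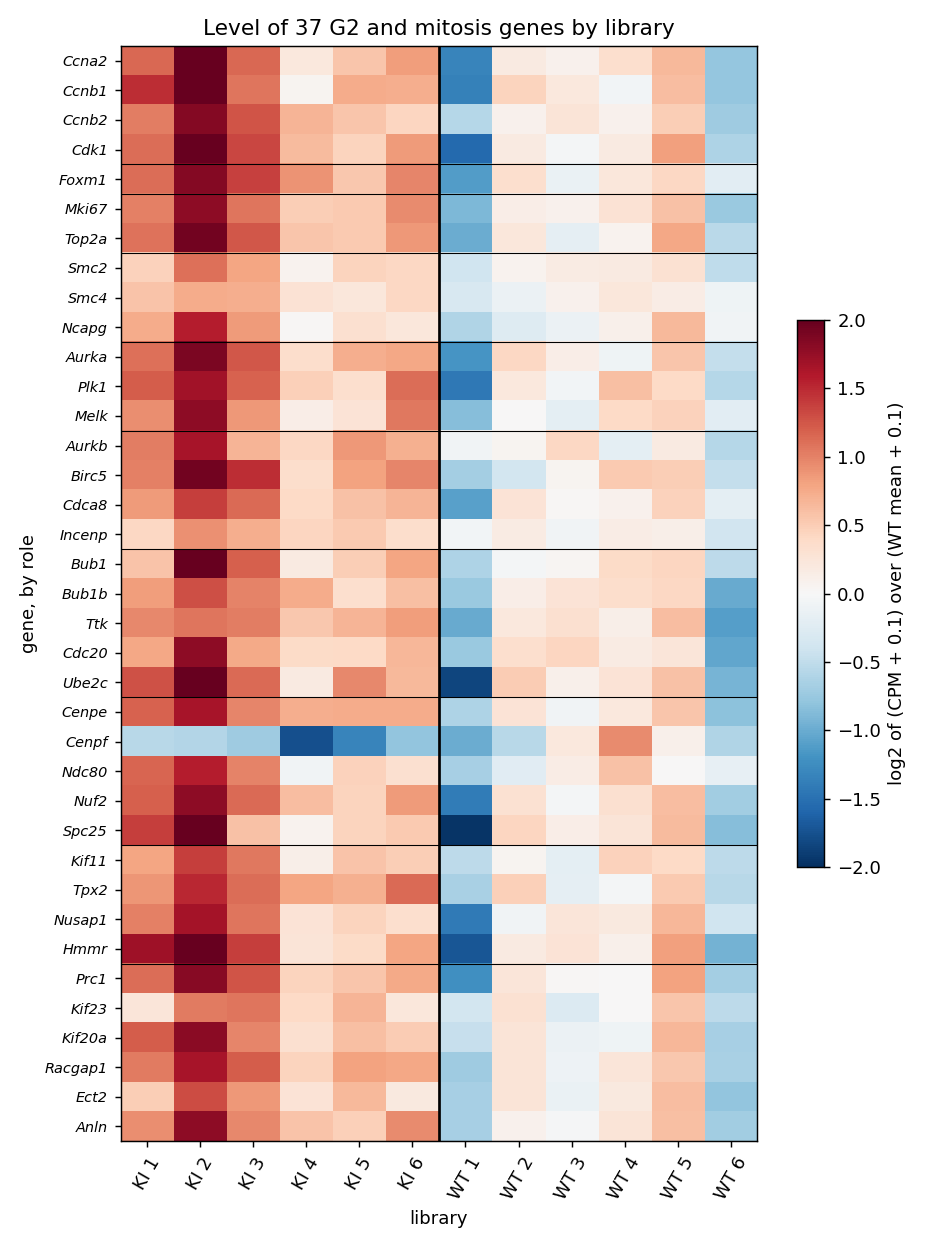
Heat map of the 37 genes (rows, grouped by role) in 6 KI libraries (left) and 6 WT libraries (right), coloured by log2 of (CPM + 0.1) over (WT mean + 0.1), red above and blue below the WT mean, with values beyond 2 either way drawn in the end colour. KI 2 is the reddest column and WT 1 and WT 6 the bluest, and the Cenpf row is blue in every KI library.

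The same few libraries were at the extremes for most of the genes. KI 2 was the highest of the 12 libraries for 35 of the 37 genes, and KI 3 came second for 22 and KI 1 for 11. WT 1 was the lowest for 24 and WT 6 for 12, so that these 2 libraries held 36 of the 37 lowest values. Summed over the 36 genes other than Cenpf, the level was 268 CPM in KI 2, 181 in KI 3, 169 in KI 1, 142 in KI 6, 125 in KI 5 and 116 in KI 4. In WT the sum was 124 CPM in WT 5, 101 in WT 4, 96.7 in WT 2, 89.9 in WT 3, 60.3 in WT 6 and 51.7 in WT 1. The groups thus overlapped where KI 4 lay below WT 5, and the mean was 167 ± 55.3 CPM in KI and 87.2 ± 26.9 CPM in WT (SD, n = 6 each). The median gene stood at 1.30 to 3.37 times its WT median in the KI libraries and at 0.513 to 1.43 times in the WT libraries. The second numbers in the titles of WT 1 and WT 6 lie in a range apart from those of the other WT titles, which do not say what the number counts. Those of KI 3, KI 4 and KI 5 are consecutive, and those of KI 1 and KI 2 lie close together. No KI number falls in a WT range, so whatever the number stands for cannot be told apart from genotype.

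**Figure D2:**
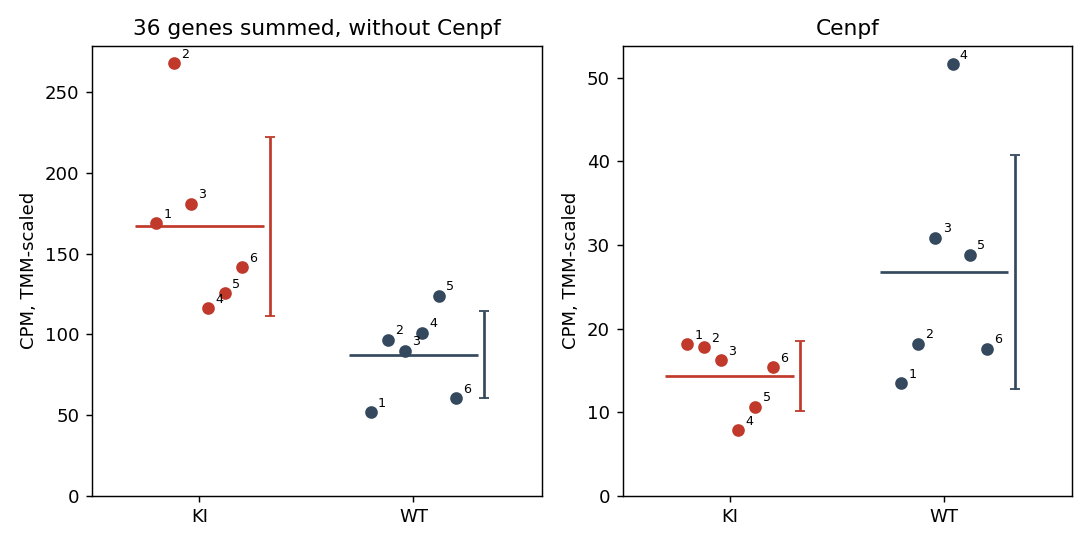
Summed level of the 36 genes without Cenpf (left panel) and the level of Cenpf (right panel), in TMM-scaled CPM, with 1 point per library marked by its number, a line at the mean and a bar of 1 SD, KI left of WT. KI 2 stands at 268 CPM in the left panel and WT 4 at 51.6 CPM in the right panel.

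FOXM1 is the transcription factor that drives many of the other genes. Foxm1 (chr6:128362994-128375886, GRCm38.p6, plus strand) was at 2.38 CPM in the lowest KI library, 3.42 at the median and 5.98 in the highest, against 0.686, 1.67 and 2.17 CPM in WT. No KI library fell into the WT range. KI over WT, Foxm1 stood at 1.23 on the log2 scale (SE 0.26, adjusted p = 0.0145). Foxm1 overlaps Tex52 on the same strand, and the neighbour's count was 8.74% of its own.

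CDK1 and its cyclins are the engine of entry into mitosis, and cyclin A2 also acts in S phase. Of the 4 genes, Ccnb2 and Cdk1 were called higher and Ccna2 and Ccnb1 were not. Ccnb2, a B-type cyclin, had a lowest, median and highest KI value of 1.73, 2.37 and 4.76 CPM, against 0.730, 1.34 and 1.80 CPM in WT. KI 6 alone lay inside the WT range, and Ccnb2 had a log2 fold change of 1.10 (SE 0.28, adjusted p = 0.0279). Cdk1, the kinase itself, had 3.17, 4.69 and 9.81 CPM in KI and 0.718, 2.43 and 4.14 CPM in WT (log2 fold change 1.21, SE 0.35, adjusted p = 0.0486). The groups overlapped for both. Ccna2, a cyclin with more counts than the other 3, had 3.16, 5.5 and 11 CPM in KI and 1.03, 2.97 and 4.27 CPM in WT, and its log2 fold change of 1.12 (SE 0.34) missed the threshold (adjusted p = 0.0557). Ccnb1 had a larger log2 fold change of 1.31 with a larger error (SE 0.40, adjusted p = 0.0584), and its counts were fractional in all 12 libraries, so some of its reads were shared with other loci or genes.

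Mki67 and Top2a are the usual markers of cycling cells. Mki67 (chr7:135689784-135716450, minus strand) encodes the Ki-67 antigen that coats mitotic chromosomes, and had 13.2 CPM in the lowest KI library, 18.6 at the median and 32.7 in the highest, against 4.98, 10.1 and 14.0 CPM in WT. The 2 lowest KI libraries, KI 4 and KI 5, lay just inside the WT range, below WT 5. The difference on the log2 scale was 1.05 (SE 0.27, adjusted p = 0.0285). Top2a encodes the topoisomerase that untangles sister chromatids, and had 7.75, 10.7 and 20.9 CPM in KI and 2.65, 5.18 and 9.30 CPM in WT (log2 fold change 1.14, SE 0.29, adjusted p = 0.0306).

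Condensin folds chromosomes for mitosis, and its genes had the smallest median log2 fold change of the 10 role groups (0.59), with 1 of 3 called. Smc4, a core subunit, had 18.4, 22.1 and 26.3 CPM in KI and 12.5, 15.7 and 18.4 CPM in WT. Only KI 5 lay below the highest WT library, and the log2 fold change of 0.51 had a small error (SE 0.11, adjusted p = 0.0156). Its partner Smc2 (0.59, SE 0.18, adjusted p = 0.0568) and the condensin I subunit Ncapg (0.78, SE 0.30, adjusted p = 0.110) missed the threshold.

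The kinases Aurka and Plk1 passed the threshold. Aurka, which acts at the spindle poles, had 1.52, 2.36 and 4.58 CPM in KI and 0.462, 1.20 and 1.78 CPM in WT (log2 fold change 1.16, SE 0.31, adjusted p = 0.0351). Plk1, which acts from mitotic entry to cytokinesis, was at 1.18 (SE 0.35, adjusted p = 0.0491). Melk was at 1.10 (SE 0.33) and missed it (adjusted p = 0.0559).

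All 4 genes of the chromosomal passenger complex, which corrects chromosome attachment and then guides cytokinesis, were called higher. Aurkb, its kinase, had 1.11, 1.48 and 2.75 CPM in KI and 0.514, 0.811 and 1.12 CPM in WT (log2 fold change 1.03, SE 0.24, adjusted p = 0.0189). Incenp, its scaffold, had 4.38, 4.77 and 6.49 CPM in KI and 2.60, 3.49 and 3.81 CPM in WT, without overlap (0.59, SE 0.13, adjusted p = 0.0146). Birc5, which encodes survivin, had 1.24, 1.98 and 3.89 CPM in KI and 0.552, 0.851 and 1.40 CPM in WT. Birc5 had the largest log2 fold change of the 21 genes called (1.26, SE 0.30, adjusted p = 0.0224), with only KI 4 inside the WT range. Cdca8, which encodes borealin, had 1.47, 1.93 and 3.01 CPM in KI and 0.462, 1.14 and 1.54 CPM in WT (0.94, SE 0.25, adjusted p = 0.0347).

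Among the 5 genes of the spindle checkpoint and the anaphase-promoting complex, only Bub1b was called, and its call held in 1 of the 12 fits below that left out 1 library. Bub1b, which encodes the checkpoint protein BUBR1, had 2.28, 3.18 and 4.53 CPM in KI and 0.838, 2.08 and 2.42 CPM in WT (log2 fold change 0.86, SE 0.25, adjusted p = 0.0499). Ube2c, which encodes a ubiquitin-conjugating enzyme that serves the complex, spanned a wide range in both groups, with 2.20, 4.11 and 8.20 CPM in KI and 0.470, 2.22 and 2.95 CPM in WT (1.20, SE 0.39, adjusted p = 0.0702). The checkpoint kinases Bub1 (1.10, SE 0.33, adjusted p = 0.0540) and Ttk (1.00, SE 0.32, adjusted p = 0.0644) and the activator Cdc20 (0.92, SE 0.30, adjusted p = 0.0720) also missed the threshold.

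Kinetochore genes were split. Cenpe encodes a motor that moves chromosomes to the spindle equator, and had 2.57, 2.82 and 4.92 CPM in KI and 0.811, 1.59 and 2.26 CPM in WT, without overlap (log2 fold change 1.09, SE 0.25, adjusted p = 0.0188). Of the genes of the microtubule-binding NDC80 complex, Nuf2 was called (1.15, SE 0.33, adjusted p = 0.0466), while Ndc80 (0.90, SE 0.30, adjusted p = 0.0727) and Spc25 (1.08, SE 0.43, adjusted p = 0.134) were not.

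Cenpf (chr1:189640606-189688107, minus strand) encodes a large protein of the kinetochore and nuclear envelope, and its values ran the other way. It had 7.81 CPM in the lowest KI library, 15.8 at the median and 18.1 in the highest, against 13.4, 23.5 and 51.6 CPM in WT. All 6 KI libraries lay below the WT mean, but 4 of them lay above WT 1. Its fold change of -0.90 on the log2 scale (SE 0.30) missed the threshold (adjusted p = 0.0773). Without WT 1 it passed (-1.04, adjusted p = 0.0418), as it did in both fits below that leave out WT 1 and WT 6. The WT libraries were spread widely, with WT 4 at 51.6, WT 3 at 30.9, WT 5 at 28.8, WT 2 at 18.2, WT 6 at 17.6 and WT 1 at 13.4 CPM. Reads were counted over whole gene spans, so the count does not tell which transcript of Cenpf they came from.

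Spindle genes included the smallest adjusted p of the 37. Tpx2 (chr2:152847964-152895321, plus strand) encodes an activator of the kinase AURKA, and had 3.37, 4.18 and 5.97 CPM in KI and 1.26, 1.88 and 2.95 CPM in WT. The groups did not overlap, with a log2 fold change of 1.09 (SE 0.22, adjusted p = 0.0115). Kif11, whose motor pushes the spindle poles apart, had 2.79, 4.19 and 6.84 CPM in KI and 1.75, 2.46 and 3.56 CPM in WT (0.81, SE 0.23, adjusted p = 0.0462), with fractional counts in all 12 libraries. The microtubule binders Hmmr (1.30, SE 0.41, adjusted p = 0.0645) and Nusap1 (0.93, SE 0.33, adjusted p = 0.0896) were not called.

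Central spindle and cytokinesis genes were called in 4 of 6. Racgap1 and Kif23 encode the partners that form centralspindlin, which marks where the cell will cleave. Racgap1 had 3.47, 4.92 and 8.12 CPM in KI and 1.51, 2.67 and 3.72 CPM in WT (log2 fold change 1.07, SE 0.24, adjusted p = 0.0189), with only KI 4 inside the WT range. Kif23 was at 0.68 (SE 0.22) and missed the threshold (adjusted p = 0.0707). Anln, which encodes the actin-binding anillin, had 4.29, 5.95 and 10.7 CPM in KI and 1.85, 3.11 and 4.67 CPM in WT (1.04, SE 0.26, adjusted p = 0.0258). The microtubule bundler Prc1 had 4.64, 6.63 and 12.2 CPM in KI and 1.39, 3.43 and 5.98 CPM in WT (1.10, SE 0.32, adjusted p = 0.0459). Only KI 1, KI 2 and KI 3 exceeded every WT library for Prc1. Kif20a, a kinesin that brings kinases to the central spindle, had 3.13, 4.37 and 8.93 CPM in KI and 1.52, 2.30 and 3.98 CPM in WT (1.03, SE 0.28, adjusted p = 0.0364). Ect2, the exchange factor that activates RHOA at the cleavage site, was at 0.74 (SE 0.28, adjusted p = 0.114).

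**Figure D3:**
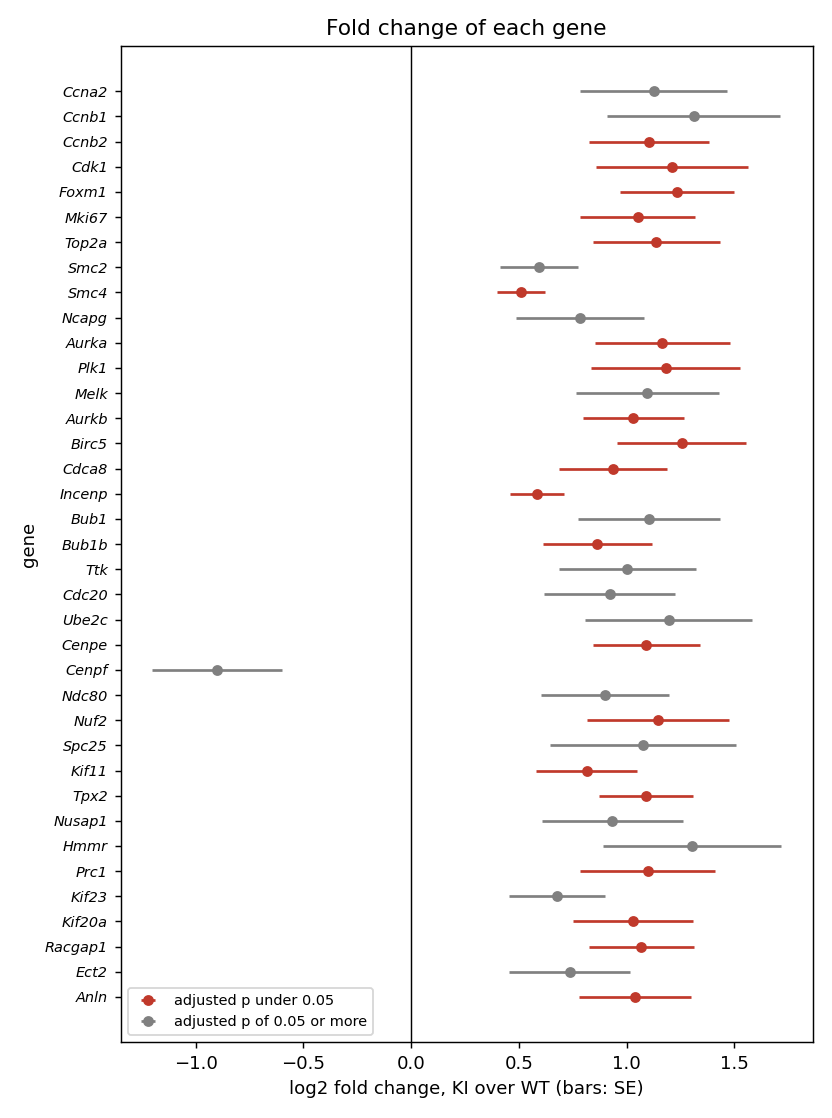
Log2 fold change of each of the 37 genes, KI over WT, with bars of 1 SE and in the order of the roles, in red where the edgeR adjusted p was under 0.05. The points of 36 genes lie right of 0, between 0.51 and 1.31, and that of Cenpf lies at -0.90.

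The 15 genes that missed the threshold, leaving out Cenpf, had log2 fold changes from 0.59 to 1.31 and adjusted p from 0.0540 to 0.134. The 21 genes called lay between 0.51 and 1.26, with adjusted p from 0.0115 to 0.0499. These ranges of fold change overlap. A p above the threshold does not show that such a gene was the same in both groups.

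The number of calls changed with the libraries compared. The 36 positive and the 1 negative fold change kept their signs in all 24 other settings wherever the gene was tested. The number called higher was 7 without WT 6, 7 without KI 3, 8 without WT 2, 9 without WT 3 and 11 without KI 2, and between 14 and 23 in the other 7 fits that left out 1 library. Over all genes tested, the share called higher was 2.47%, 2.56%, 2.55%, 3.06% and 4.4% in the same order. It was 2.68% to 4.56% in the other 7, against 4.46% with all 12 libraries. Foxm1, Tpx2, Aurkb, Cenpe, Racgap1, Incenp and Smc4 were called in each of the 12 fits that left out 1 library. Of the other genes called, Bub1b and Prc1 held in 1 of these 12 fits and Cdk1 and Plk1 in 2. With RLE factors in place of TMM, Bub1b also missed the threshold (edgeR adjusted p = 0.0513). KI 3, KI 4 and KI 5 share an age tag in the bracketed part of their titles that the other KI titles lack there, and the KI group was also split along it. In the same part, KI 2 carries the tag old and KI 6 the tag new, and the labels explain neither. What these tags stand for was not tested. When KI 3 to 5 stood for the KI group, the 37 genes had a median of 0.72. EdgeR called 3 of them higher, Foxm1, Tpx2 and Incenp, against 4.96% of all genes. When KI 1, 2 and 6 stood for it, the median was 1.28, and edgeR called 0, against 0.433% of all genes called higher. At an unadjusted p under 0.05, in either direction, the counts were 22 and 35 of the 37, in the same order. The share of all genes at that unadjusted p was not worked out for these fits. Leaving out WT 1 and WT 6, a choice made after their low values were seen, gave a median of 0.79 and 2 genes called higher, Foxm1 and Tpx2, against 2.05% of all genes. Without KI 2 as well, the median was 0.56 and these same 2 genes were called, against 2.26% of all genes.

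**Figure D4:**
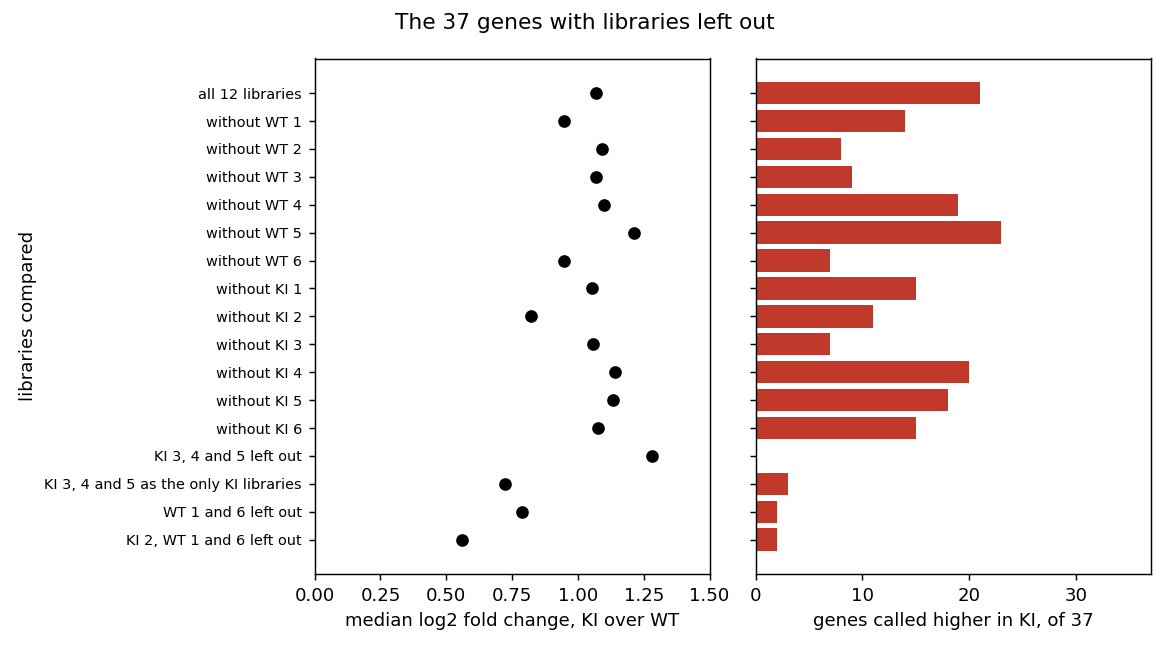
Median log2 fold change of the 37 genes, KI over WT (left panel), and the number of them called higher by edgeR at an adjusted p under 0.05 (right panel), with all 12 libraries (top) and with the libraries named at the left missing. The median stays between 0.56 and 1.28 while the number called runs from 0 to 23.

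Other genes of cell division were read from the same fit. Of 50 further mitosis genes, 22 were called higher (44%, against 4.46% of all genes tested) and 1 lower. Of their log2 fold changes, 49 were above 0, against 52.8% of all genes, and the median was 0.91. The number called higher was 10 without WT 6, 12 without KI 3, 14 without WT 3 and 2 without KI 3 to 5, and 32 by DESeq2. Over all genes, the share called higher was 2.47%, 2.56%, 3.06%, 0.433% and 6.28% in the same order. The median of the 50 was 1.08 without KI 3 to 5. Kif2c, a kinesin that takes microtubules apart at centromeres, had the smallest adjusted p (log2 fold change 1.71, SE 0.32, adjusted p = 0.00801), with 0.721, 1.08 and 2.26 CPM as the lowest, median and highest KI values and 0.231, 0.365 and 0.584 CPM in WT. The condensin I subunit gene Ncaph (0.93, SE 0.18), the kinetochore gene Dsn1 (0.72, SE 0.15) and the citron kinase gene Cit (0.92, SE 0.19) followed. The gene called lower was Pttg1, named here after its values were seen, which encodes securin, the inhibitor of separase. It had 38.7, 42.4 and 44.9 CPM in KI and 46.0, 49.7 and 51.9 CPM in WT, without overlap, as in 2.21% of all genes (log2 fold change -0.23, SE 0.05, adjusted p = 0.0139).

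S phase genes were called higher in 9 of 29 (31%, against 4.46% of all genes tested) and lower in 0. Of their log2 fold changes, 28 were above 0, against 52.8% of all genes, and the median was 0.44. Their counts were 11 higher by DESeq2 and 10 by voom, against 6.28% and 6.5% of all genes, with none lower. In edgeR 20 were higher at an unadjusted p under 0.05, against 12.8% of all genes. EdgeR called 4 when WT 6 was left out, 6 when either WT 2 or KI 3 was, and 2 when KI 3 to 5 all were. Over all genes, it called 2.47%, 2.55%, 2.56% and 0.433% higher in these fits, in the same order. Mcm3, a subunit of the replicative helicase, had 7.06, 7.49 and 9.23 CPM in KI and 4.70, 5.27 and 6.47 CPM in WT (0.57, SE 0.10, adjusted p = 0.00521). Uhrf1, which keeps DNA methylation through replication, was at 1.10 (SE 0.23, adjusted p = 0.0139), the replication gene Gins2 at 0.78 (SE 0.17, adjusted p = 0.0139) and Mcm5 at 0.74 (SE 0.16, adjusted p = 0.0146). Summed over the list, the KI libraries ran from 137 to 209 CPM, highest in KI 2, and the WT libraries from 97.1 to 142 CPM, lowest in WT 1, the same extremes as for mitosis.

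Genes of the DREAM, MuvB and NF-Y complexes, which act at CHR and CCAAT elements, were called at a share near that of all genes. Foxm1, called higher above, is not in this list, while Rb1, which encodes no subunit of these complexes, is. Of the 16 genes listed, 1 was called higher (6.25%, against 4.46% of all genes), Mybl2, which encodes B-MYB (0.85, SE 0.21, adjusted p = 0.0247), and the median was -0.05. DESeq2 called 2 higher and 1 lower, voom 1 higher and 1 lower, and edgeR 0 without WT 3, WT 6 or KI 3. Subunits and regulators of the anaphase-promoting complex had 1 of 16 called, Anapc7 (0.18, SE 0.05, adjusted p = 0.0392), and a median of -0.01, with 2 called higher by DESeq2 and 3 by voom. Over all genes, DESeq2 called 6.28% higher and voom 6.5%. When single libraries were left out, edgeR called 1 without WT 1, WT 2 or KI 2 and 0 without any other library. Cohesin genes, which a resting cell also uses, had 0 of 9 called by edgeR, with 2 at an unadjusted p under 0.05, 0 by DESeq2 and 2 lower by voom. Wapl, which encodes a factor that releases cohesin from DNA, had the smallest adjusted p among them (-0.18, SE 0.06, adjusted p = 0.0881). Of 11 genes of cell cycle arrest, 1 was called higher (9.09%, against 4.46% of all genes), the inhibitor gene Cdkn2c (0.34, SE 0.09, adjusted p = 0.0347). EdgeR called 0 without WT 2, WT 3, WT 6, KI 2, KI 3, KI 4 or KI 6, and 1 higher and 1 lower without KI 1. DESeq2 called 2 higher, and voom 2 higher and 1 lower. Cdkn2a, with 10 to 19.5 counts in KI and 2 to 14 in WT, had the largest log2 fold change of the list (1.17, SE 0.35) and missed the threshold (adjusted p = 0.0538). With library totals as the only scaling, which gave all genes a median of 0.16, the medians were 0.10 for the DREAM, MuvB and NF-Y genes, 0.14 for the anaphase-promoting complex and 0.06 for cohesin.

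**Figure D5:**
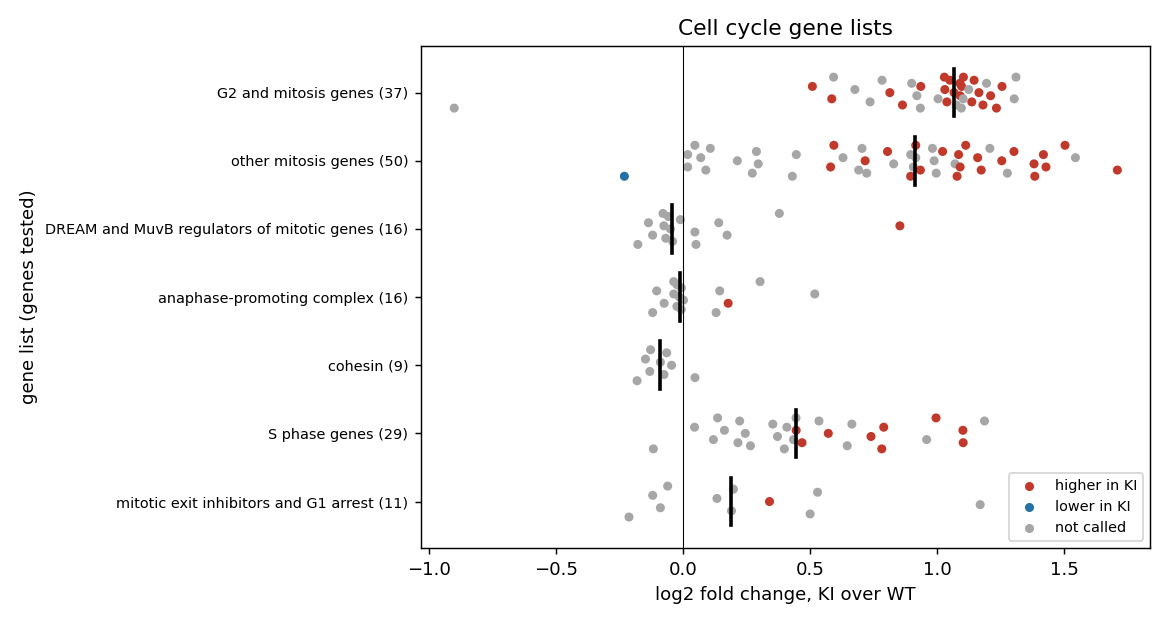
Log2 fold change, KI over WT, of every tested gene in the 37 genes (top row) and 6 further cell cycle lists, 1 point per gene with its vertical place only for legibility, red or blue where edgeR called it higher or lower and grey otherwise, and a black line at the median of each list. The 2 mitosis lists centre on 1.07 and 0.91, S phase on 0.44 and cohesin on -0.09.

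Markers of the cell types in a heart were read beside these values. The 8 cardiomyocyte markers summed to 35020 to 44330 CPM in KI and 39900 to 44860 CPM in WT. Tnni3 and Pln were called lower, 2 of the 8, against 4.34% of all genes tested. DESeq2 and voom each called 3 lower, against 1065 and 1267 of 15606 genes. EdgeR called 3 lower without WT 4 (824 of 15704 genes) and 0 without WT 2, WT 5, WT 6 or KI 4. The 8 fibroblast markers summed to 1674 to 3290 CPM in KI and 1577 to 1902 CPM in WT. Col1a1 and Col3a1 were called higher, 2 of the 8, against 4.46% of all genes. All 8 had a log2 fold change above 0 (median 0.40), against 52.8% of all genes. Of these, 6 had an unadjusted p under 0.05, against 12.8% of all genes in that direction. DESeq2 called 4 and voom 1, against 6.28% and 6.5% of all genes. Without KI 2, edgeR called 5 of the 8, against 4.4% of all genes. In the other fits that left out 1 library it called 1 or 2, against 2.47% to 4.56%. KI 2, the highest library for mitosis genes, had the lowest fibroblast sum of the KI group (1674 CPM), inside the WT range. Gsn held much of this sum (a mean of 1229 of 2331 CPM in KI) and stood at 721 CPM in KI 2. Pdgfra, Gsn and Dpt were lowest of all 12 libraries in KI 2, and the other markers were lowest in a WT library. For Col1a1 every KI library lay above every WT library (78.0 CPM or more, against 74.1 or less), as in 2.14% of all genes. The 8 macrophage markers summed to 188 to 272 CPM in KI and 160 to 266 CPM in WT, with 0 called by edgeR, 1 by DESeq2 and 0 by voom. In edgeR 5 were higher at an unadjusted p under 0.05, against 12.8% of all genes. Without WT 1, edgeR called 3, against 4.2% of all genes. WT 1, the lowest library for mitosis genes, had the highest macrophage sum of the WT group (266 CPM), and KI 2 the highest of the KI group (272 CPM). The 8 endothelial markers summed to 1015 to 1327 CPM in KI and 990 to 1199 CPM in WT, and the 8 pericyte and smooth muscle markers to 1008 to 1417 CPM in KI and 1202 to 1309 CPM in WT. Lymphocyte markers (1.27 to 3.12 CPM in KI, 1.72 to 3.45 CPM in WT, all 8 detected) and neutrophil markers (1.85 to 5.82 CPM in KI, 2.17 to 4.28 CPM in WT) were near 0. The 6 erythroid markers summed to 448 to 1137 CPM in KI and 438 to 913 CPM in WT. The 5 mesothelial markers ran from 7.19 to 15.0 CPM in KI and from 5.26 to 14.9 CPM in WT, and the 5 adipocyte markers stood at 45.0 CPM in KI 6 and at 0.489 CPM or less in every other library. The part of any cell type in the mitosis result was not tested.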

How the data were processed

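Libraries of 12 heart RNA samples came from a stranded messenger RNA kit, per the labels' protocols. The submitters' processing notes name cutadapt 2.5, STAR 2.7.2b and featureCounts 1.6.4. What the authors deposited are expected counts per gene, not normalized. Per the file headers, reverse-strand reads were counted over whole gene spans of a GRCm38.p6 RefSeq annotation and split as fractions between alignments and genes, so 42.4% to 47.5% of a library's nonzero values are not whole. Of the 37 genes, 4 overlap another gene on their strand.

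Groups came from the labels. After filterByExpr (minimum count 10, minimum total 15) and TMM scaling, KI was set against WT by edgeR 4.0.16 (R 4.3.3) with its quasi-likelihood test, using fractional counts and no covariate. Benjamini-Hochberg adjustment covered all 15606 genes tested, and calls needed an adjusted p under 0.05. SE came from the test statistic. The titles carry separate numbers but do not say that each library is a separate animal, so p values measure the spread between these samples. Libraries of 1 group differed beyond counting noise (chi-square of at least 6.89 per degree of freedom). In KI this value was 6.89 to 12.1 among KI 3, KI 4 and KI 5, 15.8 for KI 1 with KI 2, and 28.1 to 43.2 for other pairs, so the KI libraries were not equally far apart. In WT it was 11.7 to 68.9, and 41.2 for WT 1 with WT 6. The 37 genes and all lists were chosen with earlier results of these data known.

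Lowest, median and highest values are given for the 15 called genes with the smallest adjusted p and, in each role group, for the gene with the smallest adjusted p and the most abundant gene. From each further list, up to 4 called genes with the smallest adjusted p are named, or the gene with the smallest adjusted p where none was called. The values of Cdk1, Pttg1, Cdkn2a and Gsn, the naming of Pdgfra and Dpt, and the sequences shown were chosen outside this rule, with results known.

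Alternatives were RLE factors, library totals, no mitochondrial genes, no filter, CPM above 1 in 6 libraries, DESeq2 1.42.0 on rounded counts, limma 3.58.1 voom with quality weights, a replicate block, each library left out, and KI 3 to 5 left out or kept alone. Leaving out WT 1 and 6, with or without KI 2, was added after the data were seen. On simulated counts for 15470 genes, the edgeR fit called 64.6% of genes changed 1.5-fold and 72.3% of those changed 2-fold, and 2.4% of its calls were unchanged genes.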

Additional observations from a re-analysis of the deposited data

Results flagged for a closer look

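In 3 of the 74 sets of 6 values (37 genes in 2 groups), 1 library stood far from the other 5 by the gap to its nearest neighbour as a share of the whole range (Dixon's 95% value for 6 samples, which chance alone passes in about 1 set in 20). All 3 were KI 2. It had 32.7 CPM of Mki67, against 19.7 in the next KI library, 6.60 CPM of Cdc20, against 3.23, and 10.7 CPM of Anln, against 6.03. Without KI 2 the log2 fold changes of these genes stayed positive.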

How the results depend on the processing

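Under TMM, 21 of the 37 genes were higher, 0 lower and the median log2 fold change was 1.07, with 696 genes higher and 677 lower over the table. With library totals as the only scaling, all genes tested had a median log2 fold change of 0.16, and 35 of the 37 were higher (2959 genes higher and 190 lower over the table). Without a filter, 12 of the 37 were higher (433 and 414 over the table, of 30886 genes tested), and DESeq2 gave 33 (980 and 1065 over the table). Voom gave 1267 lower genes over the table. Leaving out 1 library gave 7 to 23 of the 37 higher, 0 to 1 lower (Cenpf), a median of 0.82 to 1.21, and 389 to 716 genes higher and 340 to 827 lower over the table. Without KI 3 to 5, 0 of the 37 were called (69 and 23 over the table), and with them alone 3 were higher (798 and 1192 over the table). Without WT 1 and 6, 2 were higher and 1, Cenpf, lower (327 and 331 over the table), and without KI 2 as well 2 and 1, with a median of 0.56 (357 and 301). Replicate numbers did not pair the samples. Correlations of their deviations were -0.279 to 0.034, and 0 of 12 libraries correlated best with their own number. The fit with a replicate block called 6 of the 37 higher (220 genes higher and 212 lower over the table). Over the 37 genes and all settings, 0 fold changes changed sign, 200 values lost and 41 gained their call. The causes were not tested. At this depth and 6 libraries a group, the edgeR fit missed part of the 1.5-fold and 2-fold changes in genes simulated on their own.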
